A study of Mus musculus with 3 samples.

Results

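The nuclear genes of the mitochondrial respiratory chain were followed in developing mouse T cells and in their stromal feeder cells, treated with the vitamin C compound phospho-ascorbate (pAsc) or left untreated. A gene belonged to the set when the name of its probe began with Nduf followed by a, b, c, s or v, with Uqcr, with Cox4 to Cox8 or with Atp5, or was Sdha, Sdhb, Sdhc or Sdhd. This rule took 86 genes with 125 probes, of 27718 genes with 41174 probes on the array. There were 36 subunits of complex I, 4 of complex II, 7 of complex III, 19 of complex IV (Ndufa4 among them) and 15 of complex V, the ATP synthase. The other 5 matched by name only. Ndufaf1 and Ndufaf2 are complex I assembly factors, Atp5s and Atp5sl are now named Dmac2l and Dmac2, and Cox4nb is now named Emc8, a subunit of the membrane protein complex of the endoplasmic reticulum. A single probe stood for 56 of the genes, and 30 had several, up to 4.

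The respiratory chain passes electrons from NADH (complex I) and succinate (complex II) through ubiquinone, complex III and cytochrome c to oxygen at complex IV, and complex V uses the proton gradient so made to produce ATP. Most subunits are encoded in the nucleus, while a small core of complexes I, III, IV and V is encoded by the mitochondrial genome and is not analysed here. Several complex IV subunits exist as a ubiquitous form and a form of heart and skeletal muscle, and thymocytes are known to change between oxidative and glycolytic metabolism as they develop.

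Each comparison was made on 1 array of 2 colours, with pAsc-treated RNA in Cy5 and untreated RNA in Cy3. Developing T cells came from C57BL/6 bone marrow progenitors kept on OP9-DL1, a stromal line that displays the Notch ligand Dll1, and Flt3L and IL7 were in treated and untreated cultures alike. They were harvested on day 14 after 24 h with 800 µM pAsc, or on day 17 after 72 h with the same dose, and each was set against an untreated culture of its day. OP9-DL1 cells grown alone, which the labels give as osteoblast of strain B6-C3Hf1 in continuous culture, received the same dose for 24 h and were set against untreated OP9-DL1 cells. Before RNA extraction T cells were separated from the stroma by adherence alone. With neither a replicate array nor a dye swap no test was possible, and a dye effect of a probe cannot be told apart from an effect of treatment on an array.

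Of 86 genes, 82 were measured on every array, meaning that their brightest probe was well above background in both channels. The other 4 were Cox4i2, Cox7b2, Cox8b and Cox8c, isoforms of lung, testis or muscle, which were not well above background in any channel. Repeat spots of a probe had a log2 SD of 0.070 in T cells at 24 h, 0.066 in T cells at 72 h and 0.068 in stromal cells. Different probes of a chain gene had a pooled SD of 0.13 (28 genes), 0.12 (27 genes) and 0.14 (25 genes) in the same order, against 0.14, 0.18 and 0.18 over all genes with several probes. These spreads hold no variation between cultures. All 30 listed stromal markers were well above background in stromal cells of both channels, and all 20 T lineage markers in T cells of both channels and days, against 5 of 20 in treated and 2 of 20 in untreated stromal cells. Genes specific to osteoblasts were not among the markers checked. Stromal markers were also measured in the T cell samples. The summed level of the 30 stromal markers, as a percentage of that in untreated stromal cells, was 42.1% in treated and 23.9% in untreated T cells at 24 h, and 87.25% in treated and 57.4% in untreated T cells at 72 h. In treated stromal cells it was 125.2%. The median over the markers was 29.88% in treated and 19.25% in untreated T cells at 24 h. At 72 h it was 71.0% and 61.15%, closer together than the sums, and in treated stromal cells 116.4%. Whether stromal RNA or the cultured cells gave this signal was not tested, nor its part in the T cell values below.

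Promoters of the set are shown because nuclear chain genes are scattered over the genome and are thought to be coordinated by shared factors, among them NRF1 and the ETS factor GABP. RefSeq promoter entries (build GRCm38.p6, 250 bases before to 50 after each start) existed for 71 of the 86 genes. The NRF1 motif CGCATGCG, searched on both strands, was in 8 of the 71 promoters, or 11.3%, against 1.91% of all 27025 promoters of the same length. The ETS motif CCGGAAGT was in 5 of 71, or 7.04%, against 4.0% of all promoters. The YY1 motif AANATGGC was in 16 of 71, or 22.5%, against 6.23% of all promoters. The motifs do not overlap in the stretches printed. The 100 bases before the start are given first for the members that hold an NRF1 motif wholly within them, with the motif in capitals.
Ndufa8 (chr2:36049339-36049438, minus strand): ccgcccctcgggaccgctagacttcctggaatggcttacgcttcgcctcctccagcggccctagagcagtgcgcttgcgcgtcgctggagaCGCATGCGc
Ndufa11 (chr17:56717662-56717761, plus strand): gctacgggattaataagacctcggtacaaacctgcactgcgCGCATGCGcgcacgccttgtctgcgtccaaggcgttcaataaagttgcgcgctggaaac
Atp5g2 (chr15:102671048-102671147, minus strand): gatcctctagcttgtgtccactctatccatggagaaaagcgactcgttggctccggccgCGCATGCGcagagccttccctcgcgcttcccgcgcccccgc
Atp5k (chr5:108434400-108434499, minus strand): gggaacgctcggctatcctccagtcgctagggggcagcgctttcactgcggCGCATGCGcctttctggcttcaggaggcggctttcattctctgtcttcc
Ndufa8 and Ndufa11 are accessory subunits of complex I, Atp5g2 encodes a proton-carrying subunit of the ATP synthase c ring, and Atp5k a subunit that joins ATP synthase dimers. Next come the members with an ETS motif wholly within the 100 bases, again in capitals, in either direction.
Uqcr11 (chr10:80406822-80406921, minus strand): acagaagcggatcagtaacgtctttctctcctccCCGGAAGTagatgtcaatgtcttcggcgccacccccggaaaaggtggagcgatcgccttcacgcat
Uqcrh (chr4:116075071-116075170, minus strand): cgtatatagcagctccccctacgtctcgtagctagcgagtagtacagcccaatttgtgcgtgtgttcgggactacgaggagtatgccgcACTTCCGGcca
Atp5h (chr11:115419920-115420019, minus strand): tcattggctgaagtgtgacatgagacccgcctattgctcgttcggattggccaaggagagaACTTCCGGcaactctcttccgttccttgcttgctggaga
Uqcr11, named Uqcr on the array, and Uqcrh (the hinge protein) are small subunits of complex III, and Atp5h belongs to the peripheral stalk of the ATP synthase. The last 3 promoters belong to complex IV genes whose levels are compared between cell types below and hold none of the 3 motifs in these 100 bases.
Cox7a1 (chr7:30184071-30184170, plus strand): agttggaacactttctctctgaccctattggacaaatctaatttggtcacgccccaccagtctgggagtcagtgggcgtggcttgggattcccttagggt
Cox7a2 (chr9:79759854-79759953, minus strand): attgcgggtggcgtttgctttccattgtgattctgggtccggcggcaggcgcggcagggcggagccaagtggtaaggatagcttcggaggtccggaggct
Cox7c (chr13:86046796-86046895, minus strand): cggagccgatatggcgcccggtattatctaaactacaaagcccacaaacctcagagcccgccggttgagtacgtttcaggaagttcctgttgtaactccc
The 8 members with an NRF1 motif had a median log2 ratio of pAsc over untreated of 0.06 in T cells at 24 h, -0.06 in T cells at 72 h and 0.13 in stromal cells, and none of the 8 was at least 2-fold apart. Over all measured genes at most 0.607% were on an array, so 0 of 8 is close to that share.

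The question of the study was what pAsc does to developing T cells, and the chain as a whole differed little between treated and untreated cells. In T cells at 24 h the 82 measured members had a median log2 ratio of 0.07, against 0.02 over all 16996 measured genes. At 72 h it was -0.04, against 0.01 over 16310 genes, and in stromal cells -0.001, against 0.02 over 14345 genes. No member was at least 2-fold apart on any array. Over all measured genes 0.341% were in T cells at 24 h, 0.607% in T cells at 72 h and 0.558% in stromal cells, so 0 of 82 is close to what these shares give. At least 1.5-fold apart were 2 members in T cells at 24 h, 3 at 72 h and 3 in stromal cells, against 3.51%, 3.91% and 4.99% of all genes. Above 0 were 58 of 82 members in T cells at 24 h, against 54.8% of all genes. The count was 31 of 82 at 72 h, against 51.1%, and 41 of 82 in stromal cells, against 53.4%.

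These values rest on loess, which reduces the change of the ratio with brightness and left some of it among the brightest genes (values below), and chain genes are bright. Their median log2 brightness was 13.55 in T cells at 24 h, 13.72 at 72 h and 14.08 in stromal cells, against 9.37, 9.74 and 9.58 over all measured genes. With a single constant subtracted per array in place of loess, so that the median measured gene is at 0, the members' medians were 0.32, 0.26 and 0.47, and 77, 75 and 73 of 82 lay above 0. Signs of the complexes given below hold for loess and turn with that setting where named. The Agilent log ratio in the authors' deposited files, which also corrects for brightness, put them at 0.02, -0.05 and -0.04.

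**Figure D1:**
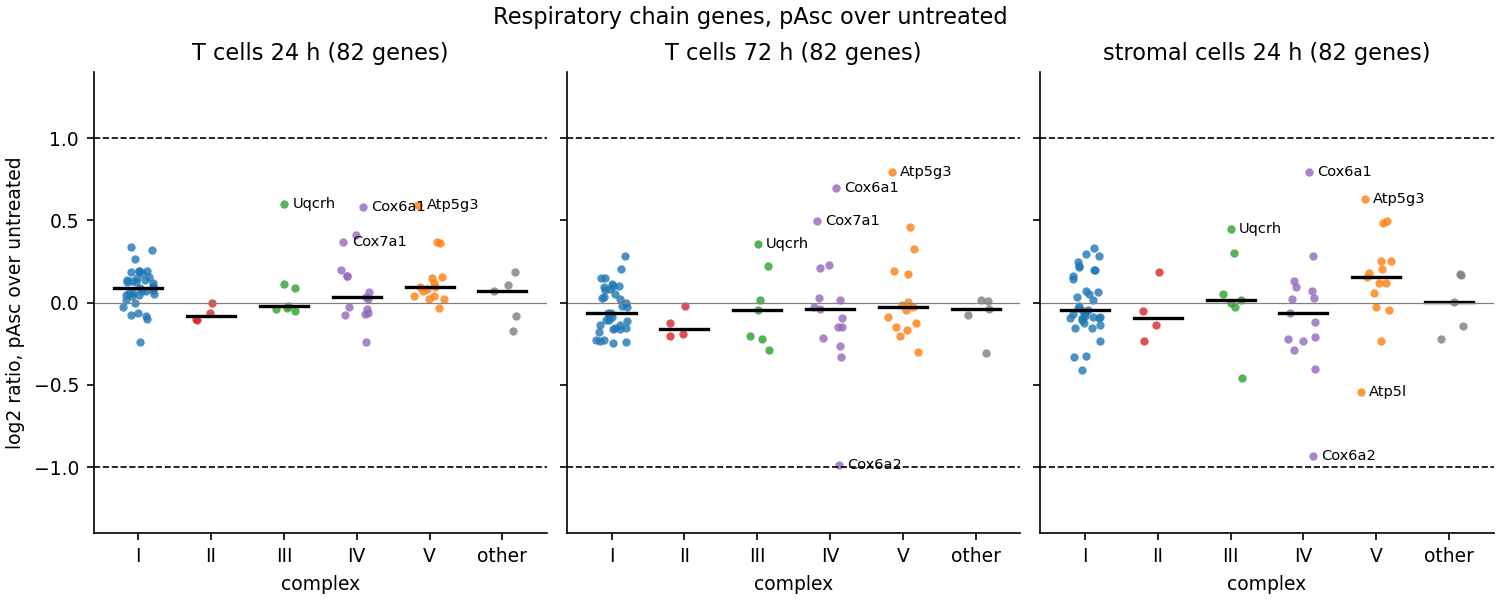
Log2 ratio of pAsc over untreated (vertical axis) of each measured respiratory chain gene on 3 arrays, by complex (horizontal axis), with horizontal jitter; each point is a gene's brightest probe, black bars are medians and dashed lines mark 2-fold. All 82 points lie inside the 2-fold lines on each array, with Cox6a2 lowest on all 3 (-0.24, -0.99 and -0.94).

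Complex I, the entry point for NADH, was the largest group. Its 36 members had a median log2 ratio of 0.09 in T cells at 24 h, with 29 above 0. The median was -0.06 at 72 h, with 14 above 0, and -0.05 in stromal cells, with 15 above 0. With centring on measured genes the medians were 0.32, 0.25 and 0.45. All 36 were within 1.5-fold on each array, where 3.51%, 3.91% and 4.99% of all genes were not, so this is close to what these shares give. The highest in T cells at 24 h was Ndufb8, an accessory subunit of the membrane arm, at log2 levels of 14.55 in treated and 14.21 in untreated cells (log2 ratio 0.34). The other, dimmer probe of Ndufb8 gave 0.13 there, so its place at the top depends on the probe. In stromal cells that probe gave -0.23, against 0.25 from the brightest. At 72 h the range ran from Ndufa6 at a log2 ratio of -0.25 to Ndufv3 at 0.28. Ndufv3, an accessory subunit next to the NADH site, had 3 probes whose log2 ratios ran from -0.18 to 0.28 at 72 h, so its position at the top depends on the probe. In stromal cells the range ran from Ndufa5 at -0.41 to Ndufb10 at 0.33, with Ndufs4, an accessory subunit, at -0.33. Ndufv1, the core subunit that binds NADH, was at -0.10 in T cells at 24 h.

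The 7 core subunits, which carry the flavin and iron-sulphur clusters, had a median of 0.01 in T cells at 24 h, -0.16 at 72 h and 0.05 in stromal cells. The 29 accessory subunits had a median of 0.10, -0.03 and -0.07 in the same order. At 72 h Ndufs1 was at 0.10 and Ndufv2 at 0.05, above the core median.

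Complex II, succinate dehydrogenase, also works in the citrate cycle and has no subunit encoded by the mitochondrial genome. All 4 members were below 0 in T cells on both days, with medians of -0.08 at 24 h and -0.16 at 72 h, and 3 of 4 in stromal cells, with a median of -0.09, while with centring on measured genes in place of loess all 4 were above 0 on each array (medians 0.13, 0.10 and 0.18). By that setting complex II had a lower median than the other 4 complexes on each array. That setting leaves the change of the ratio with brightness in place. With the running median over genes of like brightness subtracted, complex II had medians of -0.08, -0.14 and -0.10 in the same order. There 1 of 4 was above 0 on each array. Complex III at 72 h (-0.14) and complex IV in stromal cells (-0.13) were then as low or lower. Sdha, the flavoprotein, was at log2 levels of 11.64 (24 h) and 11.66 (72 h) in treated T cells, against 11.74 and 11.78 in untreated T cells. Sdhb, the iron-sulphur subunit, was at 13.17 and 13.11 in treated and 13.17 and 13.13 in untreated T cells. Sdhc, a membrane anchor, was at 11.70 and 11.81 in treated and 11.77 and 12.01 in untreated T cells. Sdhd, the other anchor, was at 14.07 and 13.71 in treated and 14.17 and 13.92 in untreated T cells. In T cells Sdhb was highest of the 4, at log2 ratios of -0.002 and -0.02, and Sdhd lowest, at -0.11 and -0.20, the second a 1.15-fold lower level in treated cells. In stromal cells Sdhb stood above 0 (log2 ratio 0.18) and Sdhd was lowest (-0.23). The 3 probes of Sdha did not share a sign there, at -0.23 to 0.19, nor in T cells at 24 h, at -0.10 to 0.04. Its place below 0 on these arrays thus rests on the brightest probe.

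Complex III, the cytochrome bc1 complex, had 7 members with medians of -0.02, -0.05 and 0.02 in T cells at 24 h, T cells at 72 h and stromal cells (0.27, 0.35 and 0.55 with centring on measured genes). Uqcrh, the hinge subunit, was highest on each array. Its log2 levels were 16.32, 16.33 and 16.34 in treated cells in that order of cultures, against 15.72, 15.97 and 15.89 in untreated cells. The log2 ratios were 0.60, 0.35 and 0.45, and the other, dimmer probe of Uqcrh gave 0.26, 0.20 and 0.12. Uqcrb, the ubiquinone-binding subunit, was lowest on each array, at log2 ratios of -0.05, -0.29 and -0.46. Uqcrfs1, the Rieske iron-sulphur protein, was at 0.09, 0.22 and 0.02, and Uqcrc1, a core protein, at -0.03, 0.02 and 0.30.

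Complex IV, cytochrome c oxidase, had medians of 0.04, -0.04 and -0.06 in T cells at 24 h, T cells at 72 h and stromal cells (0.33, 0.26 and 0.32 with centring on measured genes). It was wider spread, with an SD between its 15 measured genes of 0.22 in T cells at 24 h, 0.38 at 72 h and 0.37 in stromal cells, against 0.12, 0.14 and 0.18 among complex I genes. Both ends of it were the isoforms of subunit 6A. Cox6a1, the ubiquitous form, was at log2 levels of 16.84, 16.89 and 17.00 in treated T cells at 24 h, T cells at 72 h and stromal cells, against 16.26, 16.19 and 16.20 in untreated cells. Treated cells were higher on all 3 arrays, by log2 ratios of 0.58, 0.70 and 0.79. Cox6a2, the form of heart and skeletal muscle, was dim but well above background in every channel, at 8.09, 7.05 and 7.26 in treated cells against 8.33, 8.04 and 8.19 in untreated cells. Treated cells were lower on all 3 arrays, at log2 ratios of -0.24, -0.99 and -0.94, and with centring on all probes the 24 h value alone turned sign (0.10). The 72 h value is a 1.98-fold lower level, just short of 2-fold.

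The size of the Cox6a2 difference depends on how the background of a dim probe is treated. With a normexp offset of 0 its log2 ratio was -0.33 in T cells at 24 h, -1.33 at 72 h and -1.43 in stromal cells, and the authors' deposited log ratio gave -0.36, -1.50 and -1.55. By those settings Cox6a2 passed 2-fold at 72 h and in stromal cells. It had 1 probe, on chromosome 7.

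Subunit 7A also has a muscle form and ubiquitous forms. Cox7a1, the muscle form, was at log2 levels of 10.21 in treated and 9.84 in untreated T cells at 24 h, at 9.72 in treated and 9.22 in untreated T cells at 72 h, and at 7.99 in treated and 8.05 in untreated stromal cells. It was higher in treated T cells on both days (log2 ratios 0.37 and 0.50) and not in stromal cells (-0.06). The deposited log ratio gave 0.30, 0.51 and -0.17. Cox7a2, the ubiquitous form, had log2 ratios of 0.02, -0.33 and -0.12, and its other probe gave 0.01, -0.34 and -0.13. Cox7a2l, which takes part in joining complexes III and IV, was at -0.07, -0.10 and -0.21. In the other pairs of isoforms, Cox4i1 was at log2 ratios of -0.07, -0.15 and 0.07, Cox6b1 at 0.16, -0.04 and 0.13, and Cox6b2, the testis form, at 0.04, 0.01 and 0.28. Cox5a and Cox5b, which are different subunits and not isoforms, were at -0.07 and -0.04 in T cells at 24 h. They were at 0.03 and -0.27 in T cells at 72 h, and at 0.02 and 0.03 in stromal cells. Cox7b and Cox8a, whose isoforms Cox7b2, Cox8b and Cox8c were not well above background, were at -0.41 and 0.10 in stromal cells and between -0.22 and 0.07 in T cells.

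**Figure D2:**
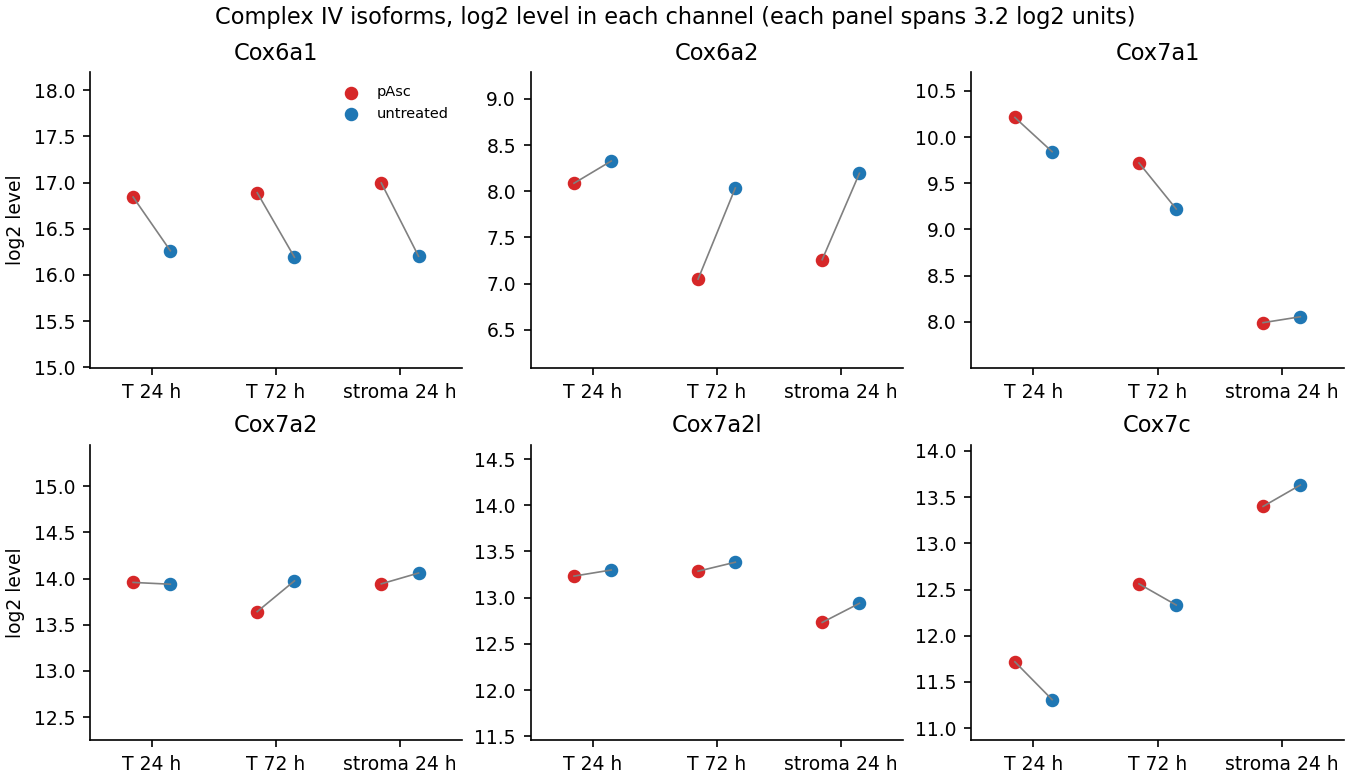
Log2 level (vertical axis) of 6 complex IV genes in each channel of the 3 arrays (horizontal axis), with pAsc-treated cells in red on the left of each pair and untreated cells in blue on the right; levels of different genes are not comparable. Cox6a1 is higher and Cox6a2 lower in treated cells on all 3 arrays, and Cox7a1 is higher in treated T cells and near equal in stromal cells (7.99 and 8.05).

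Cox7c, a small membrane subunit, was at log2 levels of 11.72 in treated and 11.31 in untreated T cells at 24 h and of 12.56 in treated and 12.33 in untreated T cells at 72 h. In stromal cells it was at 13.40 in treated and 13.63 in untreated cells. Its log2 ratio was thus positive in T cells (0.41 and 0.23) and negative in stromal cells (-0.23). Ndufa4, first assigned to complex I and now counted as a complex IV subunit, was at 0.20, -0.02 and -0.22.

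Complex V had 15 members with medians of 0.09 in T cells at 24 h, -0.03 at 72 h and 0.15 in stromal cells, and 14, 6 and 11 of them above 0. The deposited log ratio gave medians of -0.01, -0.04 and 0.07, with 7, 6 and 8 above 0. After the running median over genes of like brightness was subtracted, 9, 5 and 9 were above 0, and centring on measured genes gave 0.44, 0.30 and 0.66. By the brightest probe after loess, the alpha, beta and gamma subunits of its catalytic part had positive log2 ratios on every array. Atp5b, the catalytic beta subunit, was at log2 levels of 15.95, 16.05 and 15.98 in treated cells, against 15.58, 15.59 and 15.50 in untreated cells (log2 ratios 0.37, 0.46 and 0.48). Atp5c1, the rotating gamma subunit, was at log2 ratios of 0.36, 0.32 and 0.49, and Atp5a1, the alpha subunit, at 0.12, 0.17 and 0.25. The other, dimmer probe of Atp5a1 gave -0.10, -0.23 and 0.20. With the deposited log ratio Atp5a1 was at -0.10 and Atp5c1 at -0.01 in T cells at 24 h, so the shared sign did not hold there. Atp5d, the delta subunit, was at 0.07, -0.15 and 0.18.

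The 3 genes of the c ring, the proton-driven rotor, encode the same mature protein and did not share a pattern. Atp5g3 was the highest member at 72 h, at log2 levels of 15.95, 16.11 and 16.02 in treated cells against 15.36, 15.32 and 15.39 in untreated cells (log2 ratios 0.59, 0.79 and 0.63). Atp5g1 was at -0.03, -0.03 and 0.12. Atp5g2 was at 0.02, -0.30 and 0.25, the lowest complex V value at 72 h. Atp5l, subunit g of the membrane part, was lowest in stromal cells at -0.54, with 13.92 in treated and 14.46 in untreated cells, and was at 0.04 and -0.09 in T cells.

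Most of the highest members were among the brightest. Across the 82 members, Pearson's r between mean log2 brightness and log2 ratio was 0.30 in T cells at 24 h, 0.37 at 72 h and 0.35 in stromal cells, as a description of probes that share an array and its dyes. Other genes of that brightness had the same direction. Above a log2 brightness of 16 the median log2 ratio of all measured genes was 0.62 (106 genes) in T cells at 24 h, 0.32 (107 genes) at 72 h and 0.52 (139 genes) in stromal cells. Between 15 and 16 it was 0.22, 0.12 and 0.13. After the running median of genes of like brightness was subtracted, Cox6a1 was at 0.07, 0.38 and 0.31, Atp5g3 at 0.31, 0.60 and 0.37, Atp5b at 0.02, 0.26 and 0.20, Atp5c1 at -0.04, 0.07 and 0.08 and Uqcrh at 0.19, 0.10 and 0.05. Probes of a gene did not all follow brightness. The brightest probe of Atp5b gave 0.37, 0.46 and 0.48, while of its 2 dimmer probes the first gave -0.15, -0.07 and 0.11 and the other -0.29, -0.04 and 0.06, in the same order of arrays. For Atp5h the order was the other way, with 0.27, 0.16 and 0.13 from the dimmer probe and 0.02, -0.01 and -0.03 from the brighter.

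**Figure D3:**
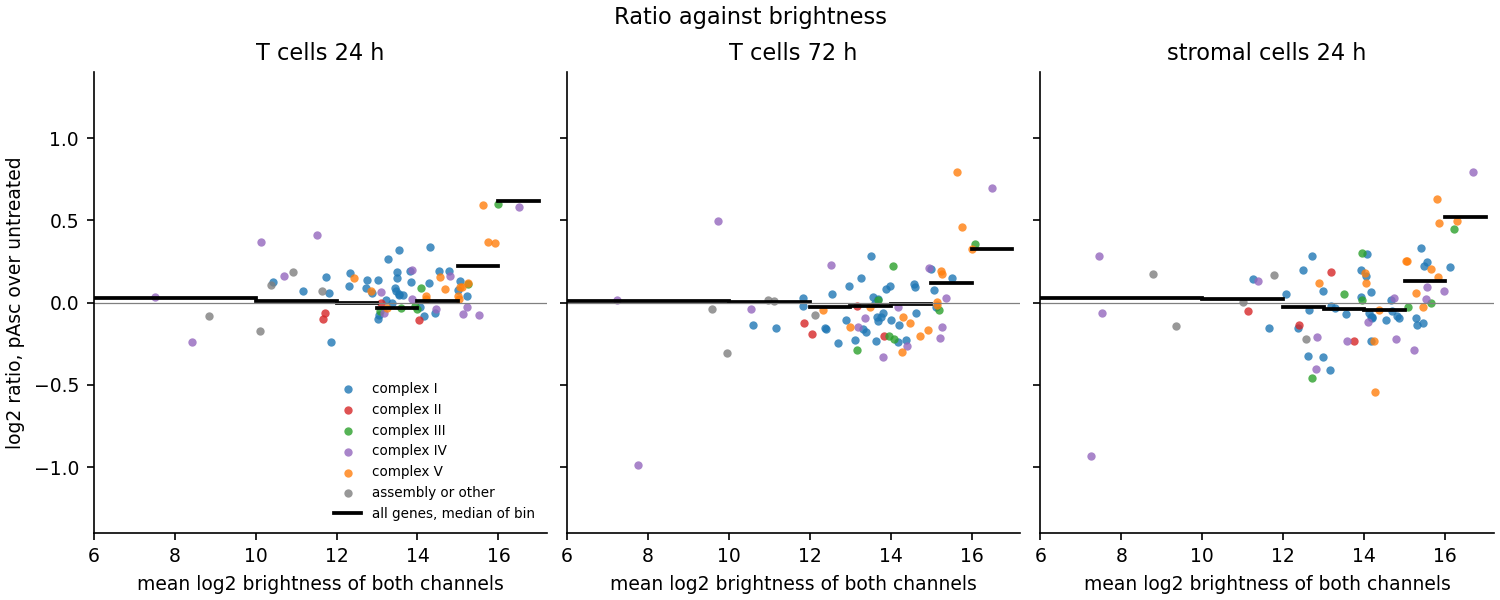
Log2 ratio of pAsc over untreated (vertical axis) against mean log2 brightness of both channels (horizontal axis) for the 82 measured members on each array, coloured by complex; black bars are the median over all measured genes in a brightness bin. Above a brightness of 16 the median of all genes is 0.62, 0.32 and 0.52, with Cox6a1 at 0.58, 0.70 and 0.79 as the brightest member, and Cox6a2 lies alone at low brightness and low ratio at 72 h and in stromal cells.

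A difference between the ratios of 2 arrays removes a constant dye effect of a probe. T cells at 72 h minus T cells at 24 h gave a median log2 difference of -0.13 over the 82 members, against -0.03 over all genes, and 17 of 82 members were above 0, against 43.8% of all genes. No member differed by at least 2-fold, against 0.564% of all genes. The lowest was Cox6a2 at -0.75, followed by Ndufc2 and Ndufa5 at -0.36, Cox7a2 at -0.35, Ndufa6 at -0.33 and Atp5g2 at -0.32. The highest were Atp5g3 at 0.20, Uqcrfs1 and Cox7a1 at 0.13, Cox6a1 at 0.12, and Ndufa13 and Cox5a at 0.11. The median was negative in each complex, at -0.11 for complex I, -0.06 for II, -0.16 for III, -0.18 for IV and -0.09 for V. With centring on all probes in place of loess the median turned to 0.07, against 0.12 over all genes. The log2 ratios of the members at 24 h and 72 h had a Pearson r of 0.79 over 82 genes, and of 0.62 after the running median was subtracted. The points share probes and the direction of the dyes.

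**Figure D4:**
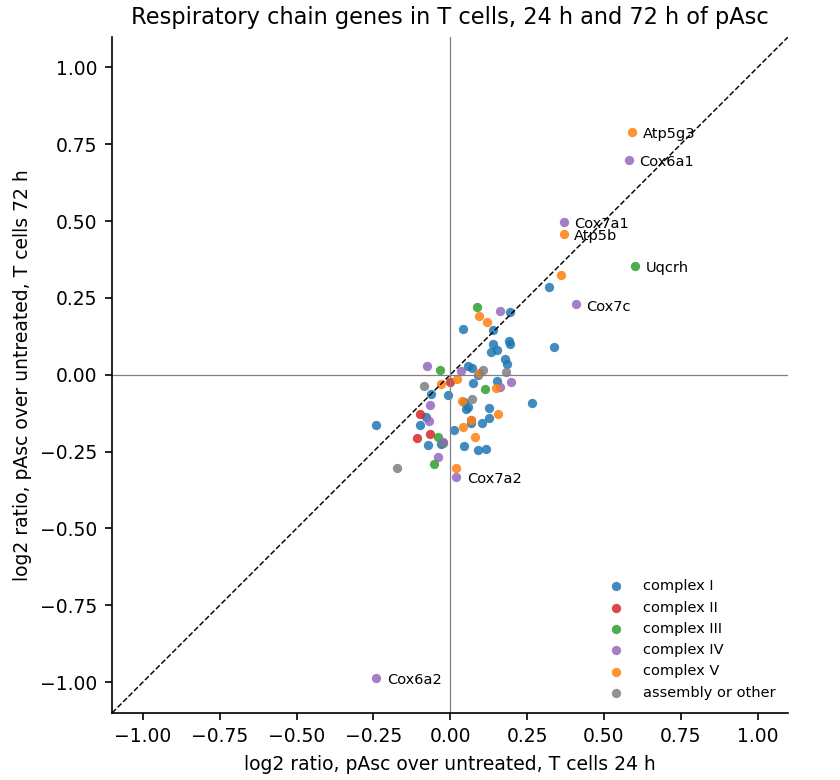
Log2 ratio of pAsc over untreated in T cells at 72 h (vertical axis) against that at 24 h (horizontal axis) for the 82 measured members, coloured by complex; the dashed line marks equal ratios. Most points lie below the dashed line (17 of 82 above it), and Cox6a2 lies farthest from it (-0.99 at 72 h and -0.24 at 24 h).

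Stromal cells minus T cells at 24 h gave a median difference of ratios of -0.06, against -0.03 over all genes, and no member differed by at least 2-fold, against 1.75% of all genes. The lowest were Cox6a2 (-0.69), Ndufa5 (-0.67), Cox7c (-0.64), Atp5l (-0.58), and Ndufs4 and Cox7b (-0.47 each). Among the highest were Atp5sl (0.35), Uqcrc1 (0.33), Ndufv1 (0.30), Cox6b2 (0.25) and Atp5g2 (0.23). Above 0 on all 3 arrays were 19 of 82 members, against 22.5% of all genes, with 6 of them in complex V and 7 in complex I. Below 0 on all 3 were 12 of 82, against 14.5% of all genes, among them 3 of the 4 complex II genes (Sdha, by its brightest probe, Sdhc and Sdhd) and none of complex V. Of all 82, Cox6a2 was the lowest on each array. Among the 5 genes that matched by name only, Atp5sl was at -0.17, -0.30 and 0.18 in T cells at 24 h, T cells at 72 h and stromal cells. Cox4nb was the highest of these 5 in T cells at 24 h (0.18), Ndufaf1 at 72 h (0.02), and Ndufaf2 the lowest in stromal cells (-0.22).

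The levels of the chain could also be set between cultures within a dye, after the arrays had been scaled to each other. In untreated cells the chain stayed close to level as the T cell culture went on. Day 17 minus day 14 gave a median log2 difference of 0.08 over 82 members, against 0.002 over all genes. Above 0 were 58 of 82 members, against 7978 of 15899 genes in all. At least 2-fold higher was 1 member, Cox7c at 1.02, against 7.72% of all genes, and 0 were at least 2-fold lower, against 3.6%. The next highest were Atp5s (0.64), Ndufaf1 (0.54), Ndufa5 (0.47), Ndufaf2 (0.42) and Ndufb4 (0.38). The lowest were Cox7a1 (-0.62), Cox6a2 (-0.29), Sdhd (-0.26), Atp5sl (-0.25), Cox6b1 (-0.21) and Cox5a (-0.19). Complex V was the most even, with its 15 members between -0.16 and 0.18. In treated cells day 17 minus day 14 gave a median of -0.04, against -0.003 over all genes. There 0 members were at least 2-fold higher, against 6.9% of all genes, and 1 was at least 2-fold lower, Cox6a2 at -1.04, against 5.33%. Cox7c (0.84), Atp5s (0.69) and Ndufaf1 (0.45) were highest, as in untreated cells, while Ndufa13 was at 0.33 and Ndufb4 at 0.32. After Cox6a2 the lowest were Cox7a1 (-0.49), Cox6b1 (-0.41), Atp5sl (-0.38), Ndufc2 (-0.37) and Sdhd (-0.35). The summed stromal markers differed between the same samples, at 87.25% on day 17 and 42.1% on day 14 in treated cells, and 57.4% and 23.9% in untreated cells.

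Stromal cells and T cells differed more. Untreated stromal cells minus untreated T cells of day 14 gave a median log2 difference of 0.33 over 82 members, against 0.25 over all genes. At least 2-fold higher in stromal cells were 10 members, or 7 of the 77 subunits and 3 of the 5 other genes, against 24.3% of all genes, and 1 member was at least 2-fold lower, against 15.8%. Set against T cells of day 17 the median was 0.26, against 0.25 over all genes, with 3 members at least 2-fold higher, against 15.4%, and 1 at least 2-fold lower, against 10.4%. The chain was less spread between the cell types than genes in general, with an SD of 0.58 against 1.46 over all genes for day 14 and 0.45 against 1.02 for day 17.

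Both ends were again in complex IV. Cox7c was at a log2 level of 13.63 in untreated stromal cells, against 11.31 in untreated T cells of day 14 and 12.33 of day 17 (differences 2.32 and 1.30). Cox7a1 was at 8.05 in untreated stromal cells, against 9.84 in untreated T cells of day 14 and 9.22 of day 17 (differences -1.79 and -1.17). Cox7c levels in untreated cells thus ran in the same order as the summed stromal markers (100% in stromal cells, 57.4% on day 17 and 23.9% on day 14), and those of Cox7a1 in the opposite order. In T cells treated with pAsc both the summed markers and Cox7a1 were higher than in untreated T cells. What part stromal RNA had in these levels was not tested. Cox6a1 was at a difference of -0.06 against day 14 and 0.01 against day 17. Cox6a2 was at -0.13 and 0.16, and with no scaling between arrays at -0.83 and -0.55, so that both its size and its sign depend on the scaling.

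By complex, the medians against day 14 were 0.41 for complex I, with 33 of 36 members above 0, -0.25 for complex II, with 1 of 4 above 0, -0.003 for complex III, 0.12 for complex IV and 0.33 for complex V. Against day 17 they were 0.30, -0.10, -0.08, 0.08 and 0.21. Over all genes the median was 0.25 against each day, with 8226 of 13869 genes above 0 against day 14 and 8711 of 14083 against day 17. With no scaling between arrays the median of all genes was -0.11 and -0.13 and that of the 82 members 0.44 and 0.28, so the distance of the chain from all genes depends on the scaling. The median of complex II less that of all genes was then 0.006 and 0.06, against -0.50 and -0.35 with scaling, and that of complex III 0.30 and 0.25, against -0.25 and -0.33. In complex I the members at least 2-fold higher in stromal cells than on day 14 were Ndufb4 (1.33), Ndufb8 (1.11), Ndufa7 (1.09), Ndufa11 (1.08), Ndufb2 (1.08) and Ndufs8 (1.01), of which Ndufs8, an iron-sulphur core subunit, was also past 2-fold against day 17 (1.04). The others are accessory subunits. Lower in stromal cells were Uqcrc2, a core protein of complex III (-0.71 against day 14 and -0.66 against day 17), and Atp5f1, now Atp5pb, the b subunit of the peripheral stalk (-0.76 and -0.74). Within the ATP synthase, Atp5d and Atp5a1 had opposite signs on both days (0.97 and -0.43 against day 14, 0.80 and -0.40 against day 17). Cox6b1 was at least 2-fold higher against day 17 (1.13), where Ndufb4 was at 0.96 and Ndufa11 at 0.91, and Cox7a2l was at -0.44. Of the genes that matched by name only, Atp5s was at 1.09 against day 14, Cox4nb at 0.85 against day 17 and Atp5sl at -0.97 and -0.73. In complex II, Sdhc was higher in stromal cells (0.73 and 0.49) and Sdha lower (-0.40 and -0.44).

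**Figure D5:**
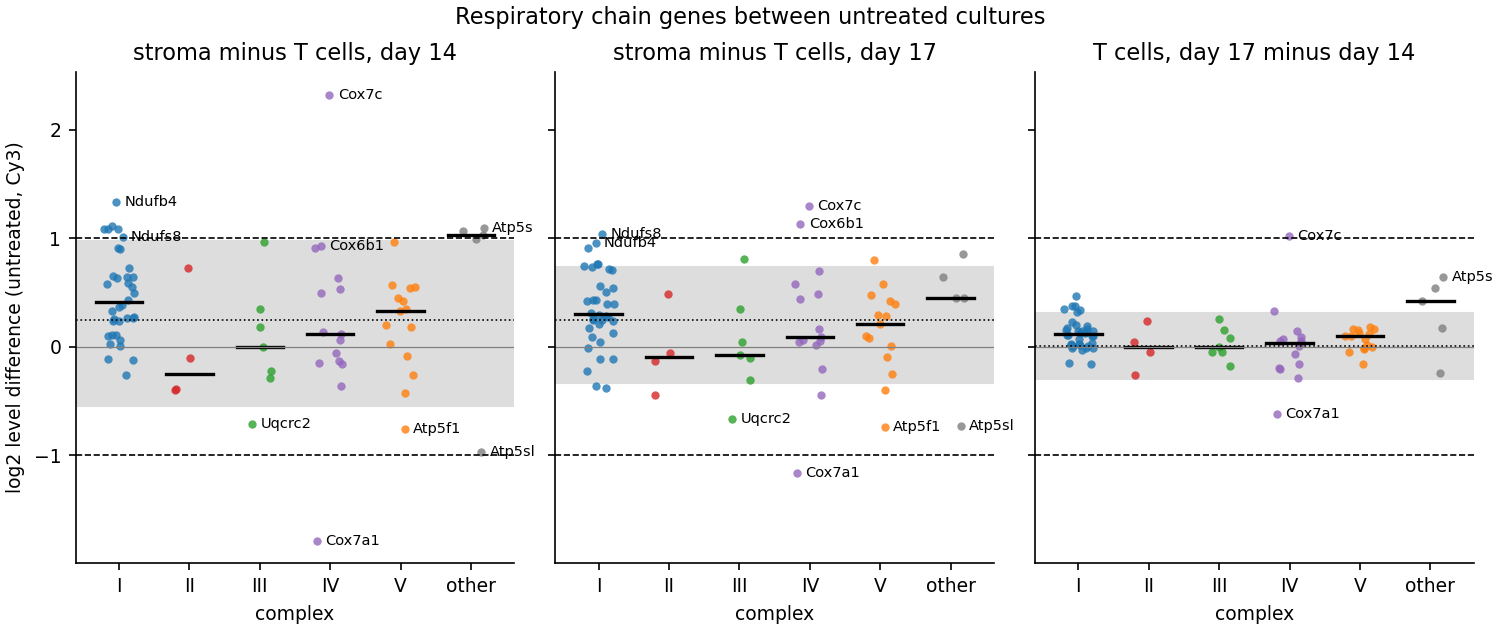
Difference in log2 level (vertical axis) of each measured member between untreated cultures, all in Cy3, by complex (horizontal axis); black bars are medians, the grey band spans the middle 50% of all measured genes, the dotted line is their median and dashed lines mark 2-fold. Cox7c (2.32, 1.30 and 1.02) is the highest and Cox7a1 (-1.79, -1.17 and -0.62) the lowest member in all 3 panels.

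The genes around the chain were read from lists of the same pathway. Of 32 measured assembly and insertion factors none was at least 2-fold apart under pAsc, with medians of 0.02 in T cells at 24 h, -0.01 at 72 h and 0.04 in stromal cells. Cox17, the copper chaperone of complex IV, was the lowest of them at 72 h (-0.50) and the highest in stromal cells (0.51). Atpif1, the inhibitor of the ATP synthase, was at 0.28, 0.00 and 0.27. Cycs, the cytochrome c of somatic cells, was at -0.06, -0.06 and -0.36. Of 18 measured genes of the citrate cycle and pyruvate dehydrogenase, medians were 0.04, 0.04 and 0.10, and 0 were at least 2-fold apart. The 78 genes of the mitochondrial ribosome had medians of 0.03, -0.06 and 0.03, also with 0 at least 2-fold apart. Over all measured genes 0.341% were in T cells at 24 h, 0.607% at 72 h and 0.558% in stromal cells. Counts of 0 in lists of this size are close to what these shares give.

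Regulators of mitochondrial gene expression were not 2-fold apart under pAsc either, against 0.341% to 0.607% of all measured genes. Nrf1 was at log2 ratios of 0.10 in T cells at 24 h, 0.26 at 72 h and 0.49 in stromal cells. Gabpa, the DNA-binding part of GABP, was at 0.05 and 0.17 in T cells and at -0.64 in stromal cells, with 8.86 in treated and 9.50 in untreated stromal cells. Tfam, which packs and transcribes mitochondrial DNA, was at 0.01, -0.41 and 0.08. The coactivator Pprc1 was at 0.03, 0.23 and 0.11, and Ppargc1b at -0.22 and -0.35 in T cells, while Ppargc1a was measured only in T cells at 24 h (0.13). Esrra was at -0.07, -0.07 and -0.03. Lonp1, a mitochondrial protease, was at -0.10, -0.26 and -0.13. Pdk1, the kinase that closes pyruvate dehydrogenase, was at 0.20, -0.10 and -0.80, with 7.74 in treated and 8.54 in untreated stromal cells.

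Against untreated T cells of day 14, untreated stromal cells had Pdk1 at a log2 difference of -3.84, Gabpa at -1.58 and Esrra at 1.26, and 10 of the 32 assembly factors at least 2-fold higher, against 24.3% of all genes, with Taco1 at 1.99 and Cox19 at 1.70 as examples. Against day 17 it was 4 of 32, against 15.4% of all genes, with Taco1 at 1.27 and Cox19 at 1.18. Cox10, which makes heme for complex IV, was at least 2-fold lower in stromal cells against day 14 (-1.14), as the 1 assembly factor of 32, and at -0.07 against day 17, where 0 of 32 were. Cox10 was also lower on day 17 than on day 14 in T cells (-1.23 in treated and -1.08 in untreated cells). Of the mitochondrial ribosome 10 of 78 genes were at least 2-fold higher in stromal cells than on day 14, against 24.3% of all genes, and 1 at least 2-fold lower, against 15.8%. Against day 17 there were 2 higher and 2 lower, against 15.4% and 10.4%. Mrps6 was at 3.10 against day 14 and 1.28 against day 17. Mrps6 was also higher on day 17 than on day 14 in T cells (1.35 in treated and 1.82 in untreated cells). The stromal markers ran in the same order, and what part stromal RNA had in this was not tested.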

How the data were processed

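RNA of 6 samples in 3 pairs was hybridised to 3 Agilent arrays of 2 colours. The authors read the slides with Agilent Feature Extraction, version 10.5.1.1, and the intensity values used here, a mean signal and a median background for each spot and dye, are not normalized, per the file headers. The deposited log10 ratio of Cy5 over Cy3 follows background and dye correction by the same software, per the file headers, and was turned to log2 as an alternative. The members, lists and settings were chosen with earlier results of these data known.

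Backgrounds were corrected with normexp (offset 50) and arrays normalized by loess (span 0.3) in limma 3.58.1 under R 4.3.3, where controls and flagged outliers had weight 0. Spots of a probe were averaged, and a gene is its brightest probe. Outside controls an array held 43379 spots, of which 117 to 130 were outliers and 0 saturated. Names came from RefSeq accessions for 25097 probes, from symbols for 6333 and from synonyms for 1668, while 8076 kept the file's name. Measured genes had a share of 0.5 or more of the probe's spots well above background in each of the channels. Levels across arrays were compared within a dye after Aquantile scaling, and the number of arrays limits the precision. A running median over 301 genes gave the ratio at like brightness. Genes named were taken from the 6 highest and 6 lowest members of each comparison, the extremes of each complex, isoform sets, the Sdh genes and fixed regulators, and others were added after their values were seen. An item that the rule would name is not reported here. The normalization was tested on simulated data whose known changes were at least 2-fold. That test does not bear on smaller ratios, nor on the change with brightness that loess left among the brightest genes. Python 3.11.15 with pandas 2.3.3 made the tables.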

Additional observations from a re-analysis of the deposited data

Results flagged for a closer look

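With 24 h of pAsc, 4 members had log2 ratios of opposite sign in stromal cells and T cells, each at least as large as the SD between probes of a gene taken over all genes (0.18 in stromal cells and 0.14 in T cells). The share of all genes past the same limits is not given here, so the count is not read as particular to the chain. Over all genes the difference of ratios had an SD of 0.36, against 0.24 among the 82 members. Ndufa5, an accessory subunit of complex I, had -0.41 (stromal cells) and 0.27 (T cells), a difference of -0.67. Cox7c was at -0.23 and 0.41, a difference of -0.64. Cox6c was at -0.29 and 0.16, a difference of -0.45. Ndufa4 was at -0.22 and 0.20, a difference of -0.42. All 4 were lower in treated stromal cells and higher in treated T cells. The count depends on that limit. With the SD between probes of chain genes (0.14 and 0.13) there were 7, of which 6 were lower and 1 higher in treated stromal cells. Each of the first 4 has 1 probe, and there was 1 array per culture, so the difference was not tested. The 1 higher in treated stromal cells was Atp5sl, which matched by name only and whose other probe gave -0.005 in T cells. With the deposited log ratio Cox6c had -0.53 and -0.05, so that its signs were no longer opposite. The summed stromal markers were at 42.1% in treated and 23.9% in untreated T cells at 24 h. Untreated stromal cells minus untreated T cells of day 14 gave 2.32 for Cox7c and 0.91 for Ndufa4. The same difference was 0.49 for Cox6c and 0.11 for Ndufa5, against a median of 0.25 over all genes. What part stromal RNA had in these T cell ratios was not tested.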

How the results depend on the processing

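With an offset of 0, plain subtraction, the deposited log ratio, the running median, the median over probes, no filter and subunits only, the median log2 ratio of the chain ran from -0.07 to -0.04 at 72 h, 0.02 to 0.07 in T cells at 24 h and -0.04 to 0.004 in stromal cells. With centring on measured genes it was 0.26 in T cells at 72 h, 0.32 at 24 h and 0.47 in stromal cells, and with centring on all probes 0.81, 0.74 and 1.11, where all genes were at 0.56, 0.42 and 0.65. Members at least 2-fold apart were 21, 7 and 53 with centring on all probes, in the order T cells at 72 h, T cells at 24 h and stromal cells, and 3, 3 and 6 with centring on measured genes. With an offset of 0, plain subtraction, the deposited log ratio and the running median there was 1 at 72 h and 1 in stromal cells, Cox6a2 in each. The shares of all genes past 2-fold under these settings and both centrings are not given here, so the counts are not read as particular to the chain. The median difference between 72 h and 24 h ratios turned to 0.075 with centring on all probes, and was from -0.13 to -0.06 otherwise. Without scaling, with Gquantile, an offset of 0, the median over probes and subunits only, median differences ran from 0.26 to 0.44 for stromal cells minus day 14, 0.23 to 0.28 for stromal cells minus day 17, 0.06 to 0.18 for untreated day 17 minus day 14 and -0.08 to 0.05 for the same in treated cells. Without scaling all genes were at -0.11 and -0.13 for stromal cells minus day 14 and day 17, against 0.25 and 0.25 with it. No replicate could be left out, with 1 array per comparison. Treated and untreated samples were paired on each array, and no paired test was possible with 1 pair per comparison. Low signal limits Cox6a2 and Cox6b2, which are dim on each array, and Cox7a1 in stromal cells (log2 brightness 7.53). Atp5s, and Atp5sl in stromal cells (8.79), were also below the median brightness of all measured genes. Cox10, and Pdk1 in stromal cells, had low levels as well.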
